A study of Mus musculus with 6 samples.

Results

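The chemoattractant receptor genes described here are 8 receptors by which macrophages sense chemokines, complement fragments, formylated peptides and platelet-activating factor: Ccr1, Cx3cr1, Cxcr4, Ccrl2, C5ar1, C3ar1, Fpr1 and Ptafr. They were picked out by gene symbol, and all 8 were found among the 34745 genes of the deposited table. RNA was sequenced from RAW 264.7, 1 established mouse macrophage line, in 3 libraries labelled as treated with the solvent DMSO and 3 labelled as treated with bisphenol AP (BPAP), a relative of bisphenol A. The series is about BPAP and the lung fibrosis that bleomycin induces, by way of macrophages, and its RNA comparison addresses which macrophage genes respond to BPAP. The dose and length of exposure were not given in the sources used here. Both groups are the same line with no genetic change named in the labels.

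Each member encodes a receptor with a bundle of membrane-spanning helices. On binding its ligand, a classical chemoattractant receptor activates an inhibitory-class heterotrimeric G protein, whose released beta-gamma dimer drives phospholipase C-beta and phosphoinositide 3-kinase gamma, calcium release, integrin activation and actin growth at the leading edge. Receptor kinases and arrestins then silence the receptor and carry it into the cell. In the lung, CCR1, CXCR4, the complement receptors and CX3CR1 are known for steering monocytes and macrophages into injured tissue.

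Sequence upstream of 3 members is shown first, because Cx3cr1 and Ccr1 are the members whose RNA level passed the test, in opposite directions, and Cxcr4 had the highest level per exon length in DMSO cells. Each sequence is the 250 bases before the RefSeq transcription start on GRCm38.p6, read 5′ to 3′ on the gene's strand, which is the minus strand for all 3. The Cx3cr1 stretch lies at chr9:120068297-120068546, the Ccr1 stretch at chr9:123968693-123968942 and the Cxcr4 stretch at chr1:128592300-128592549. Capitals mark matches to the searched motifs GAGGAA, the core bound by the macrophage factor PU.1, and TATAAA, the TATA box.

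Cx3cr1: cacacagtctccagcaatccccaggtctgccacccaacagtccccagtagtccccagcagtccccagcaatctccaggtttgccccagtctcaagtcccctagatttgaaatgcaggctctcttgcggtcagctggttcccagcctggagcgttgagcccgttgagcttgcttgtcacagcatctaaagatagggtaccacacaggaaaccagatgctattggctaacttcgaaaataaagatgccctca
Ccr1: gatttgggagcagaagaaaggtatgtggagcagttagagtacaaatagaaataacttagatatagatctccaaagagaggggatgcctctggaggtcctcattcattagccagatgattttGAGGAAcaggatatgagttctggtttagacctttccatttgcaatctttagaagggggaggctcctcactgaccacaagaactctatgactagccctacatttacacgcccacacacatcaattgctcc
Cxcr4: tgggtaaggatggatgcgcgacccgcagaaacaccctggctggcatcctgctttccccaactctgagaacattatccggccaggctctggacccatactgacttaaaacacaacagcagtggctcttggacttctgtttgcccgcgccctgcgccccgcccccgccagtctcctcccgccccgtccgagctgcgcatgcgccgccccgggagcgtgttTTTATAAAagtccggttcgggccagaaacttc

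The stretches differ in base composition. The Cxcr4 stretch held 61.2% G and C with 19 CpG dinucleotides, the Cx3cr1 stretch 53.6% with 4, and the Ccr1 stretch 43.6% with 1, beside medians of 52.4% and 6 over 32851 RefSeq promoters of the same length. TATAAA lay 30 to 25 bases before the start of Cxcr4, with an overlapping match on the other strand at 32 to 27, and 12.4% of all promoters held this motif on either strand. GAGGAA lay 129 to 124 bases before the start of Ccr1, and 23.3% of all promoters held it. The searched letters were not in the Cx3cr1 stretch.

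All 8 members matched the RefSeq table, with 10 promoters in all. Besides the motifs above, 6 others were searched on both strands: the ETS-IRF composite, the AP-1 site TGANTCA, the CRE half-site TGACGT, the NF-kB motif, the ATF4 composite TGATGNAA and the antioxidant response element TGACNNNGC, which can overlap TGANTCA and TGACGT. They occurred in 2.3%, 6.75%, 6.47%, 3.9%, 3.45% and 10.2% of all promoters. Upstream of C3ar1 lay an AP-1 match at 22 to 16 bases and TATAAA at 235 to 230, and upstream of Ptafr GAGGAA at 242 to 237 and the ATF4 composite at 222 to 215, both on the other strand. One Ccrl2 promoter held an NF-kB match at 56 to 47 bases and an antioxidant response element match at 42 to 34. The other Ccrl2 promoters overlap each other and held the same TGACGT site. Fpr1 had TATAAA at 227 to 222, and no searched motif was found in the C5ar1 stretch. These matches are letters in a window and were not measured as binding sites.

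Of the 8 receptors, Ccr1 was higher and Cx3cr1 was lower in BPAP-treated cells, 4 were tested and not called, and C5ar1 and Fpr1 fell below the count filter. With edgeR's quasi-likelihood test and a Benjamini-Hochberg adjusted p under 0.05, 2 of the 6 tested members were thus called, beside a background of 31.7% of 11711 tested genes (16.2% higher and 15.5% lower). The median log2 fold change of the 6, BPAP minus DMSO, was 0.14, beside 0.017 over all genes tested. In 5 of the 6 the 3 BPAP libraries lay entirely on one side of the 3 DMSO libraries, 3 higher and 2 lower, where 49.0% of tested genes did so, 25.2% higher and 23.8% lower. The share of members called was close to the background. Ccr1 passed the count filter only through the BPAP libraries, where it is high, and its call ended in some alternatives, so Cx3cr1 is the called member that does not have this limit.

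Library totals ran from 11084705 to 13806559 counts, so that 3 counts amount to 0.211 to 0.275 CPM, the count relative to the library's scaled total, with counting error only. Whether the libraries of a group are separate cultures is not said in the labels, and p-values therefore reflect library-to-library spread that may be technical. Library DMSO 1 had 10.8% of its counts on mitochondrial genes, against 6.53% to 7.55% in the others. Of 9 macrophage markers in the table, 8 were tested and Mertk was at 0. Their summed level was 3798 to 4353 CPM in DMSO and 4569 to 4973 CPM in BPAP libraries. Of the markers, 5 were higher and Csf1r lower, where 31.7% of all tested genes were called. Lyz2 and Cd68 were the largest parts of the sum. The mean of Lyz2, called higher, was 1808 CPM in DMSO and 2320 CPM in BPAP. Cd68, at 1439 and 1552 CPM, was not called (edgeR adjusted p = 0.471). Of 31 markers of other cell types, 17 were at 0 everywhere. The neutrophil sum was at most 0.422 CPM, the T cell sum at most 0.469, the B cell sum at most 0.164, the fibroblast sum at most 0.915 and the epithelial sum at most 0.0813, while mast cell markers were at 0. Dendritic cell markers summed to 12.6 to 14.03 CPM in DMSO and 8.40 to 11.2 CPM in BPAP. Most of that sum was Itgax, called lower, at 10.8 to 13.4 CPM in DMSO and 7.15 to 10.2 CPM in BPAP. Flt3 and Ccr7 were at 0, Xcr1 had 0 to 4 counts and Zbtb46 was not called. The part of these markers in the results was not tested. In bulk RNA, fewer cells of a kind and less RNA per cell cannot be told apart.

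**Figure D1:**
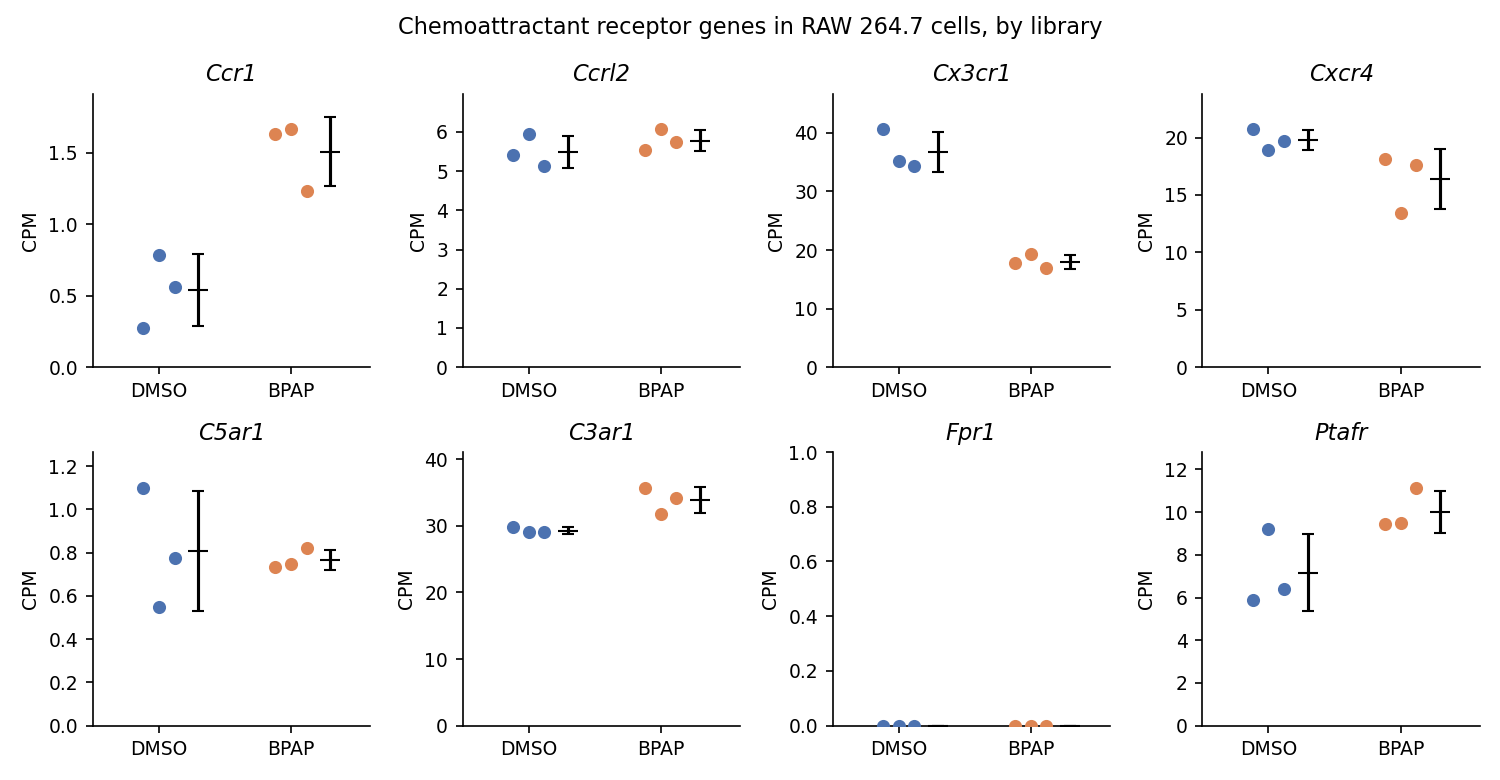
Level of each receptor gene in CPM (vertical axes from 0, a different scale in each panel), with 1 point for each of the 3 DMSO and 3 BPAP libraries and bars beside them for mean and SD. Cx3cr1 lies at 34.4 to 40.6 CPM in DMSO and 16.9 to 19.3 CPM in BPAP, while all Ccr1 values are under 1.67 CPM.

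Cx3cr1, the receptor for the membrane-bound chemokine fractalkine and a widely used marker of monocytes and resident macrophages, showed the clearest difference. Its counts were 443, 450 and 489 in DMSO 1 to 3, and 218, 232 and 206 in BPAP 1 to 3. Scaled, these were 40.6, 35.2 and 34.4 CPM in DMSO and 17.7, 19.3 and 16.9 CPM in BPAP. Every BPAP library lay below every DMSO library, with a wide gap between the groups. The mean fell from 36.7 ± 3.39 to 18.0 ± 1.22 CPM (SD, n = 3 each), a 2.04-fold lower level. The log2 fold change was -1.03 with an SE of 0.11 and a 95% interval from -1.29 to -0.78 (edgeR quasi-likelihood test, Benjamini-Hochberg adjusted p = 0.000545). The gene was called in 15 of 15 alternative analyses, with log2 fold changes of -1.08 to -0.83.

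The Cx3cr1 gene lies on the minus strand of chromosome 9 and encodes a protein of 354 residues in 1 coding exon. In GRCm38 annotation (GENCODE M21), its main transcript has an exon at chr9:120068205-120068296 and one at chr9:120048683-120052343. One of its 3 transcripts adds an exon of 12 bases at chr9:119901616-119901627, which stretches the annotated gene to 168264 bases and makes it span 5 neighbours. Wdr48, Gorasp1, Ttc21a, Csrnp1 and Xirp1 lie within that stretch, and none of them shares an exon base with Cx3cr1.

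These neighbours did not move as one. They were picked for mention with their values known. Xirp1, which encodes an actin-binding repeat protein of muscle, had 69, 57 and 68 counts in DMSO and 11, 5 and 10 in BPAP. It fell from 5.19 ± 1.00 to 0.710 ± 0.257 CPM (SD, n = 3 each), a log2 fold change of -2.84 (SE 0.30, edgeR adjusted p = 0.000522). BPAP 2, at 0.416 CPM, was under the 0.805 CPM of the count filter. Xirp1 thus entered the test through its DMSO libraries, where it is high, which limits what its p-value can show. Csrnp1, a nuclear factor gene, rose from 43.1 ± 2.92 to 72.2 ± 13.6 CPM (SD, n = 3 each; log2 fold change 0.74, edgeR adjusted p = 0.00333). Wdr48, which encodes a cofactor of deubiquitinases, was lower by a log2 fold change of -0.33 (edgeR adjusted p = 0.0130). Gorasp1, a Golgi stacking gene, had a log2 fold change of 0.052 (edgeR adjusted p = 0.765), and Ttc21a had 3 to 16 counts and was not tested.

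**Figure D2:**
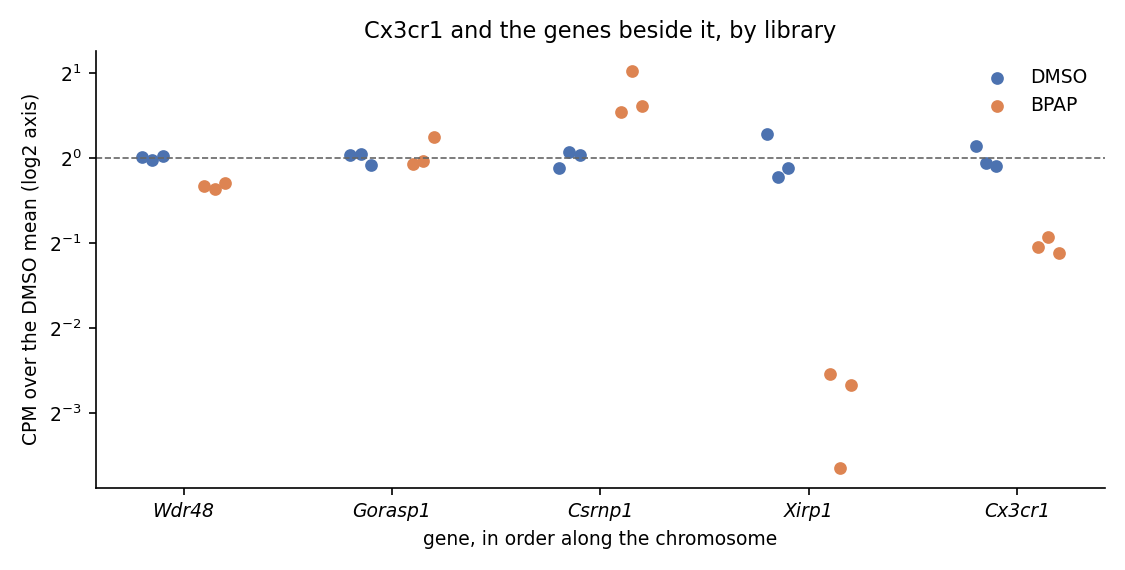
CPM of Cx3cr1 and 4 tested genes within its annotated span, divided by the gene's DMSO mean (log2 axis), with 1 point per library and genes in chromosome order. The BPAP points of Cx3cr1 and Xirp1 lie below all DMSO points (log2 fold changes -1.03 and -2.84) and those of Csrnp1 above (0.74).

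Ccr1, a receptor for several inflammatory CC chemokines such as CCL3, CCL5 and CCL9, was the called member in the other direction, at a far lower level. It had 3, 10 and 8 counts in DMSO 1 to 3 and 20, 20 and 15 counts in BPAP 1 to 3, or 21 against 55 counts in sum. The levels were 0.275, 0.782 and 0.563 CPM in DMSO and 1.63, 1.66 and 1.23 CPM in BPAP. The groups did not overlap. The mean rose from 0.540 ± 0.254 to 1.51 ± 0.241 CPM (SD, n = 3 each), 2.70-fold, with a log2 fold change of 1.43 (SE 0.39, 95% interval 0.58 to 2.29, edgeR adjusted p = 0.0184).

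All 3 DMSO values of Ccr1 were under the 0.805 CPM that the count filter asks for, so the gene entered the test through its BPAP libraries. DMSO 1 held the fewest counts of Ccr1, 3. Without DMSO 1 the log2 fold change was 1.14 and the edgeR adjusted p 0.0630. Without DMSO 3 they were 1.45 and 0.0548, and DESeq2 gave 1.46 with an adjusted p of 0.0504, so the call ended in each case. Ccr1 kept its direction in 13 of 13 alternatives and its call in 10.

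Cxcr4, the receptor for CXCL12 that holds leukocytes in bone marrow and guides them to injured tissue, was lower in each BPAP library without passing the test. Its counts were 226, 242 and 280 in DMSO and 223, 161 and 215 in BPAP, giving 20.7, 18.9 and 19.7 CPM against 18.1, 13.4 and 17.6 CPM. The highest BPAP library lay just under the lowest DMSO library, and BPAP 2 stood below the other BPAP libraries. Means were 19.8 ± 0.908 and 16.4 ± 2.60 CPM (SD, n = 3 each), with a log2 fold change of -0.27 (95% interval -0.58 to 0.035, edgeR adjusted p = 0.158).

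Ccrl2, an atypical receptor that binds chemerin and presents it to neighbouring cells without G protein signalling of its own, had 59, 76 and 73 counts in DMSO and 68, 73 and 70 in BPAP. The levels were 5.41, 5.94 and 5.14 CPM against 5.53, 6.07 and 5.74 CPM, and the groups overlapped. Means were 5.50 ± 0.408 and 5.78 ± 0.273 CPM (SD, n = 3 each). The log2 fold change of 0.073 had a 95% interval from -0.29 to 0.44 (edgeR adjusted p = 0.763). Changes within that range are compatible with the data, which does not show that there was none.

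Among the complement receptors, C3ar1, which binds the anaphylatoxin C3a, was well expressed. Its counts were 325, 371 and 412 in DMSO and 439, 382 and 416 in BPAP, or 29.8, 29.0 and 29.0 CPM against 35.7, 31.8 and 34.1 CPM. Every BPAP library lay above every DMSO library. Means of 29.3 ± 0.467 and 33.9 ± 1.98 CPM (SD, n = 3 each) gave a log2 fold change of 0.21 with a 95% interval from -0.011 to 0.43 (edgeR adjusted p = 0.131), which did not pass the threshold.

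C5ar1, the receptor for the strong neutrophil and macrophage attractant C5a, was close to the detection limit. It had 12, 7 and 11 counts in DMSO and 9, 9 and 10 counts in BPAP, and the groups overlapped. Means were 0.807 ± 0.278 and 0.767 ± 0.0466 CPM (SD, n = 3 each). Without the count filter its log2 fold change was -0.062, with a wide 95% interval from -0.97 to 0.85 (edgeR adjusted p = 0.946). Changes inside that interval are compatible with these counts, so a lack of difference was not shown.

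Fpr1, the receptor for formylated peptides from bacteria and mitochondria, had 0 counts in all 6 libraries, which allows a level of up to 0.211 to 0.275 CPM depending on the library. Ptafr, the receptor for the lipid platelet-activating factor, had 64, 118 and 91 counts in DMSO and 116, 114 and 136 in BPAP. Its levels were 5.87, 9.22 and 6.40 CPM against 9.43, 9.48 and 11.1 CPM. The groups did not overlap, but DMSO 2 came close to the BPAP libraries.

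The mean level of Ptafr was 7.17 ± 1.80 CPM in DMSO and 10.02 ± 0.976 CPM in BPAP (SD, n = 3 each), with a log2 fold change of 0.48 (95% interval 0.057 to 0.90, edgeR adjusted p = 0.0781). Without DMSO 2 the log2 fold change was 0.70 and the edgeR adjusted p 0.0290. This was the only call of Ptafr among 15 alternatives. Leaving out any other library gave edgeR adjusted p values from 0.0881 (without BPAP 2) to 0.238 (without DMSO 1).

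**Figure D3:**
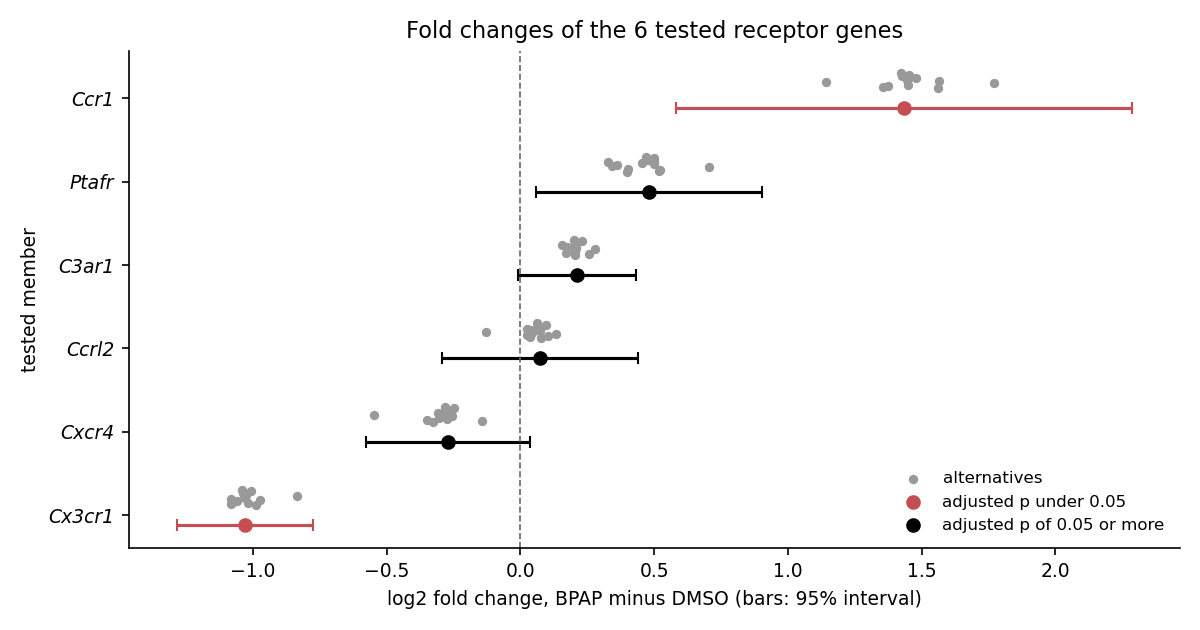
Log2 fold change (BPAP minus DMSO) of the 6 tested receptor genes with 95% intervals from edgeR, coloured by adjusted p, with the alternatives as grey points (those from FPKM on the log2 scale with a pseudocount). Ccr1 has the widest interval (0.58 to 2.29), and the interval of Ptafr (0.057 to 0.90) lies above 0 although its adjusted p of 0.0781 misses the threshold.

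The length of a gene bears on this comparison. Across 11677 tested genes, each library's deviation from the mean log2 level was correlated with merged exon length (Spearman's rho 0.327 to 0.336 in DMSO and -0.348 to -0.309 in BPAP libraries), which is a description of these libraries with genes that are not independent. Merged exon length was 4505 bases for Cx3cr1, 4305 for C3ar1, 2833 for Ccr1, 3637 for Ptafr, 2598 for Ccrl2 and 1808 for Cxcr4, beside a median of 4296. With each library's trend on exon length and GC content removed, Cxcr4 reached a log2 fold change of -0.55 (edgeR adjusted p = 0.0232) and C3ar1 one of 0.28 (edgeR adjusted p = 0.0495). Both were then called, Cx3cr1 and Ccr1 stayed called, and 4 of the 6 tested members were past the threshold. In that fit 2646 of 11665 tested genes were called, and whether the members differ from other genes was not tested. The log2 fold change of Ccrl2 then turned to -0.13, not called.

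The receptors were far apart in abundance. Per kilobase of merged exons, the DMSO levels were 10.9 ± 0.502 CPM for Cxcr4, 8.16 ± 0.752 for Cx3cr1 and 6.80 ± 0.108 for C3ar1 (SD, n = 3). Ccrl2 at 2.12 ± 0.157 and Ptafr at 1.97 ± 0.496 CPM per kilobase overlapped, as did C5ar1 at 0.314 ± 0.108 and Ccr1 at 0.191 ± 0.0897. The other neighbours in this order did not overlap, and Fpr1 was at 0.

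In BPAP cells the order changed below the top. Cxcr4 at 9.06 ± 1.44 CPM per kilobase overlapped C3ar1 at 7.86 ± 0.459, and Cx3cr1 came after both at 3.99 ± 0.271 (SD, n = 3). Ptafr (2.75 ± 0.268), Ccrl2 (2.22 ± 0.105), Ccr1 (0.532 ± 0.0849) and C5ar1 (0.298 ± 0.0181) followed without overlap. The sum of the 8 was 30.5 ± 1.07 CPM per kilobase in DMSO and 26.7 ± 1.601 in BPAP cells (SD, n = 3 each). Cx3cr1 made up 26.7% ± 1.56 of that sum in DMSO and 15% ± 1.93 in BPAP, and C3ar1 22.3% ± 0.472 and 29.4% ± 0.499. A share also rises when another member falls, and C3ar1 itself was not called (edgeR adjusted p = 0.131).

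The order rests on the gene length used. The deposited FPKM values divide by a longer length for Cx3cr1, 6885 bases, and by 2707 for Cxcr4 and 4775 for Ccrl2. On the FPKM scale, C3ar1 (6.87 ± 0.0606) lay above Cx3cr1 (5.39 ± 0.364) in DMSO cells and above Cxcr4 (7.78 ± 0.423 against 5.98 ± 0.918) in BPAP cells (SD, n = 3 each). Between DMSO and BPAP, Cx3cr1 moved from the second to the third place per kilobase and from the third to the fourth in FPKM, where it overlapped Ptafr.

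**Figure D4:**
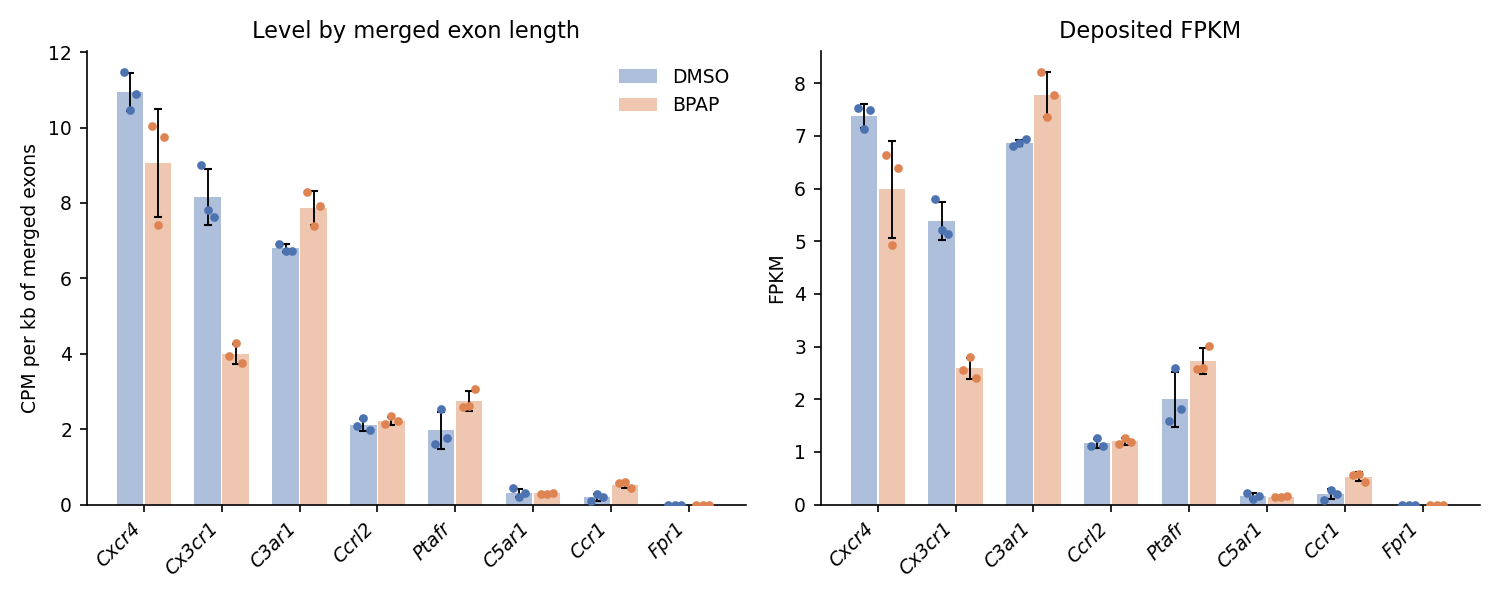
Level of each receptor gene in DMSO and BPAP cells as CPM per kilobase of merged exons (left) and as deposited FPKM (right), with bars for means, error bars for SD and 1 point per library, 3 a group. Cx3cr1 drops from 8.16 to 3.99 CPM per kilobase, below C3ar1 in BPAP cells.

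The genes most like each called member were sought by the root mean square difference of centred log2 CPM over the 6 libraries, among 8418 or 8419 tested genes with a mean of at least 10 CPM. For Cx3cr1 they were Sema5a, a semaphorin gene (difference 0.0713, log2 fold change -0.96), and Nup210, a nuclear pore gene (difference 0.0772, log2 fold change -0.90). For Ccr1 they were Itga7, an integrin subunit gene (difference 0.109, log2 fold change 1.04), and Ssu72, which encodes a phosphatase of RNA polymerase (difference 0.123, log2 fold change 0.88). All 4 of these genes were themselves called (edgeR adjusted p at most 0.00226). They were picked for likeness to a called gene in these same libraries, so their calls add no support.

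Of 35 other chemoattractant receptors listed, 6 were tested, 1 was lower and 5 were not called, and 29 fell below the count filter, 16 of them at 0 in all libraries. Over all tested genes 31.7% were called, 16.2% higher and 15.5% lower. The called gene of this list was Gpr183, an oxysterol receptor that positions immune cells. It had 456, 523 and 575 counts in DMSO and 325, 257 and 368 in BPAP. It fell from 41.1 ± 0.694 to 25.99 ± 4.41 CPM (SD, n = 3 each), a log2 fold change of -0.66 (SE 0.13, edgeR adjusted p = 0.00470). Receptors of the chromosome 9 cluster around Ccr1 were barely counted. Ccr2, the main receptor of inflammatory monocytes, had 8, 5 and 8 counts in DMSO and 12, 5 and 9 in BPAP. Xcr1 had 0 to 4 counts and Ccr1l1 0 to 1, and Ccr3, Ccr9 and Cxcr6 were at 0.

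Ligands of these receptors, with the enzymes that make or release them, were called in both directions. Of 38 listed, 24 were tested, and 8 were higher, 3 lower and 13 not called, where 16.2% of all tested genes were higher and 15.5% lower. The median log2 fold change was 0.26, beside 0.017 over all genes, and whether the list differs from other genes was not tested. Without DMSO 2 or without BPAP 2, 5 were higher, and 1 was lower without DMSO 2, without DMSO 3 or with the length and GC trend removed. Of the CCR1 ligands, Ccl5 had 9, 14 and 31 counts in DMSO and 65, 55 and 39 in BPAP. It rose 3.09-fold, from 1.37 ± 0.718 to 4.35 ± 1.06 CPM (SD, n = 3 each; log2 fold change 1.63, SE 0.34, edgeR adjusted p = 0.00647).

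The more abundant Ccl3 had 1853, 1831 and 1467 counts in DMSO and 2495, 2813 and 2311 in BPAP, a 1.51-fold rise from 139 ± 33.6 to 209 ± 22.8 CPM (SD, n = 3 each; edgeR adjusted p = 0.0299). Ccl4, an inflammatory CC chemokine gene, rose from 8.40 ± 1.25 to 20.9 ± 1.87 CPM (SD, n = 3 each; log2 fold change 1.31, edgeR adjusted p = 0.000545). Ccl9 had a log2 fold change of 0.27 (edgeR adjusted p = 0.0555) and Ccl6 one of 0.44 (edgeR adjusted p = 0.267), both not called. Ccl7 had 0 to 1 counts.

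Cxcl2, a neutrophil-attracting CXC chemokine, rose from 7.84 ± 1.36 to 31.4 ± 7.76 CPM (SD, n = 3 each; log2 fold change 2.01, SE 0.20, edgeR adjusted p = 0.000436). Saa3, an acute-phase protein gene, rose from 2.09 ± 0.313 to 4.91 ± 0.876 CPM (SD, n = 3 each; log2 fold change 1.24, edgeR adjusted p = 0.00364). The 3 lower genes of this list, named after their values were seen, were Ccl22, Adam17 and Cpd. Ccl22, a chemokine gene for CCR4, fell from 5.54 ± 1.48 to 2.10 ± 0.784 CPM (SD, n = 3 each; log2 fold change -1.38, SE 0.30, edgeR adjusted p = 0.00702). Adam17, a sheddase of fractalkine, and Cpd, a carboxypeptidase gene, had log2 fold changes of -0.33 and -0.26 (edgeR adjusted p = 0.0168 and 0.0455).

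The matched ligands of several members were not detected or nearly so at this depth: Cxcl12, Hc (the source of C5a), Ccl19 and Rarres2 (chemerin) had 0 counts in all libraries, and Cx3cl1 had 0 counts except 4 in BPAP 2.

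C3, the source of C3a, had a log2 fold change of -0.62 (5.08 ± 0.457 to 3.31 ± 1.03 CPM, SD, n = 3 each; edgeR adjusted p = 0.0721). Anxa1, whose product binds formyl peptide receptors, was abundant in both groups, at 237 ± 14.2 and 234 ± 32.6 CPM (SD, n = 3 each; edgeR adjusted p = 0.926). Of the enzymes that make platelet-activating factor, Lpcat1 had a log2 fold change of 0.36 (edgeR adjusted p = 0.0572) and Lpcat2 one of -0.078 (edgeR adjusted p = 0.653).

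Downstream, 17 of 23 listed heterotrimeric G protein genes were tested, 4 were higher, 1 lower and 12 not called (median log2 fold change 0.15), a share called near the 31.7% of all tested genes. With the length and GC trend removed, 2 were higher. Gnaq, the alpha subunit that couples receptors to phospholipase C-beta, fell from 197 ± 13.1 to 128 ± 14.6 CPM (SD, n = 3 each; log2 fold change -0.62, edgeR adjusted p = 0.00233). Gng5, a gamma subunit, rose from 74.6 ± 3.32 to 107 ± 14.03 CPM (SD, n = 3 each; edgeR adjusted p = 0.00599), and Gna12 from 47.6 ± 1.44 to 64.5 ± 5.02 CPM (SD, n = 3 each; edgeR adjusted p = 0.00744). Gngt2, another gamma subunit, rose from 25.9 ± 0.357 to 35.9 ± 3.40 CPM (SD, n = 3 each; edgeR adjusted p = 0.00932), a call lost with the length and GC trend removed (log2 fold change 0.17, adjusted p 0.257). Gna12 shares 456 exon bases with Amz1 and Gngt2 shares 234 with Abi3, both on the opposite strand, so their counts are uncertain. Gnai2, the main inhibitory alpha subunit of leukocytes, named after its values were seen, was at 567 ± 27.4 and 563 ± 8.50 CPM (SD, n = 3 each; edgeR adjusted p = 0.926).

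Genes that end receptor signalling or sort receptors were called in both directions. Of 23 listed, 20 were tested, 3 were higher, 3 lower and 14 not called (median log2 fold change -0.015), a share called near the 31.7% of all tested genes. At most 1 was called in either direction without DMSO 2 or without DMSO 3. There was 1 higher without BPAP 3, and 1 lower without BPAP 1 or with the length and GC trend removed. Usp8, a deubiquitinase of internalised receptors, fell from 161 ± 12.3 to 122 ± 9.99 CPM (SD, n = 3 each; log2 fold change -0.40, edgeR adjusted p = 0.0113). Rgs10, Rgs3 and Itch were also called: Rgs10 and Rgs3, which speed the shut-off of G proteins, had log2 fold changes of 0.41 and 0.64 (edgeR adjusted p = 0.0147 and 0.0178). Itch, a ubiquitin ligase for CXCR4, had one of -0.27 (edgeR adjusted p = 0.0304), which reversed to 0.039 with the length and GC trend removed. Rgs10 lost its call without DMSO 2 (adjusted p 0.0676), without DMSO 3 (0.0565) and in that fit (0.588), Rgs3 without DMSO 1 (0.0522), DMSO 2 (0.0751) or BPAP 3 (0.0537), and Itch without DMSO 2 (0.0707), DMSO 3 (0.0940) or BPAP 1 (0.0829).

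Among genes of chemotaxis effectors, 57 were listed and 56 tested, of which 5 were higher, 14 lower and 37 not called, where 16.2% of all tested genes were higher and 15.5% lower. The median log2 fold change was -0.062, and whether the list differs from other genes was not tested. With the length and GC trend removed, 3 were higher and 9 lower, while 1377 and 1269 of 11665 genes were. Without DMSO 1, 3 were higher. Itgb2, the beta-2 integrin subunit by which macrophages adhere, had 2398, 2708 and 2745 counts in DMSO and 953, 1147 and 909 in BPAP. It fell 2.53-fold, from 208 ± 13.7 to 82.5 ± 11.3 CPM (SD, n = 3 each; log2 fold change -1.34, SE 0.11, edgeR adjusted p = 0.000176).

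The phospholipase C-beta genes Plcb2 and Plcb4, named for their small p among the called genes of the list, were lower. Plcb2 fell from 130 ± 11.2 to 75.4 ± 9.65 CPM (SD, n = 3 each; log2 fold change -0.78, edgeR adjusted p = 0.00146) and Plcb4 from 62.8 ± 5.57 to 37.9 ± 1.31 CPM (SD, n = 3 each; log2 fold change -0.73, edgeR adjusted p = 0.00110). Arpc4, a subunit of the actin-nucleating Arp2/3 complex, rose from 88.5 ± 18.4 to 173 ± 3.83 CPM (SD, n = 3 each; log2 fold change 0.97, edgeR adjusted p = 0.00130). Arpc4 shares 283 exon bases with Ttll3 on the same strand, so its counts are uncertain.

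**Figure D5:**
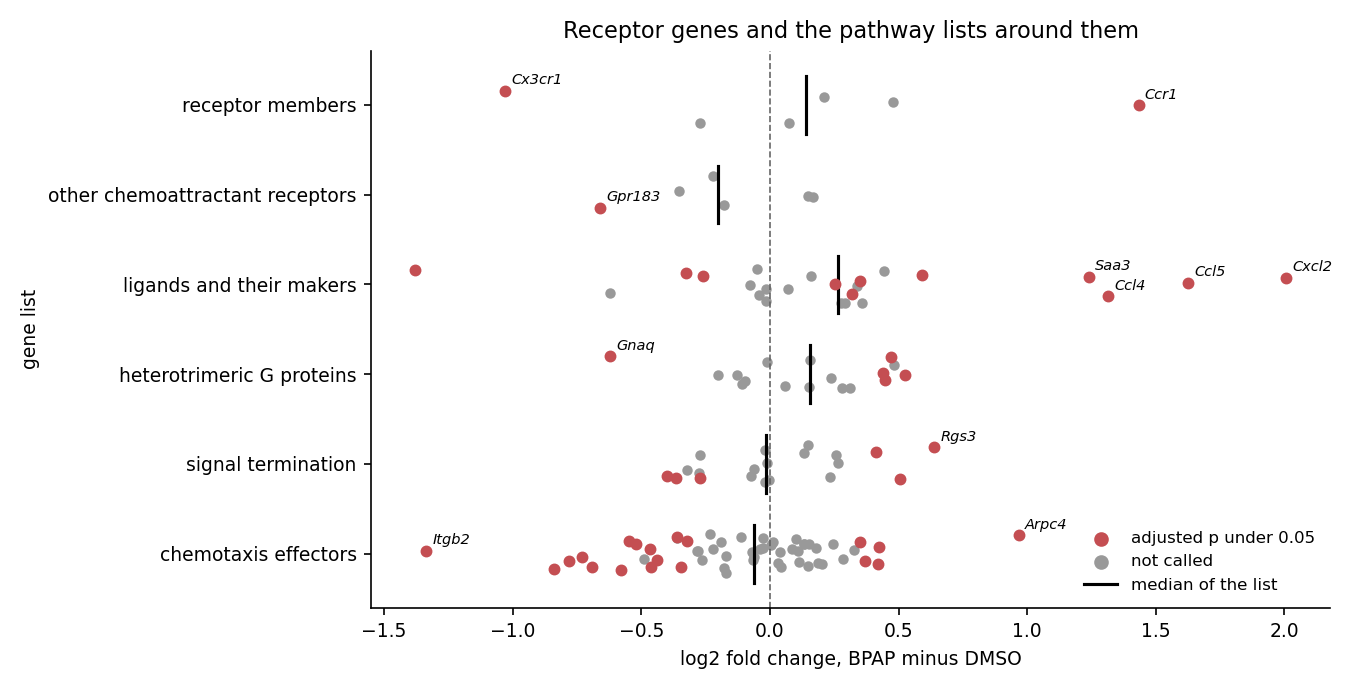
Log2 fold changes (BPAP minus DMSO) of tested genes in the receptor group and the 5 companion lists, with 1 point a gene, called genes in red and a black line at each list's median. Cxcl2 (2.01) and Itgb2 (-1.34) lie at the outer ends of their lists, and points spread vertically only to be told apart.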

How the data were processed

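RNA was measured in 6 libraries of RAW 264.7 cells, 3 DMSO and 3 BPAP, grouped by the treatment label and numbered by the titles. Per the labels' protocols, TRIzol extraction preceded library preparation with a VAHTS Universal V6 kit. Per the submitters' processing notes, HISAT2 2.0.4, StringTie 1.3.3b and edgeR were used on GRCm38, but their roles and order are unstated. Strand setting and the treatment of multi-mapping reads: not given in the sources used here. The authors deposited a raw count and an FPKM value per gene and library, per the file headers. The table held 34745 genes, 18090 of them with no count, and 34344 identifiers matched GENCODE M21, which gave exons and lengths.

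Counts were tested in R 4.3.3 with edgeR 4.0.16: filterByExpr (minimum count 10, which was 0.805 CPM; 11711 genes kept), TMM scaling, and the robust quasi-likelihood test, 2-sided, adjusted by Benjamini-Hochberg across the 11711 genes, with a threshold of 0.05. The biological coefficient of variation was 0.127. Levels are TMM-scaled CPM, and per kilobase levels divide by merged exon length. Alternatives were DESeq2 size factors, upper quartile scaling, no count filter, DESeq2 1.42.0, limma-voom and limma-trend (limma 3.58.1) on log2(FPKM + 1) and log2(FPKM + 0.1) of genes with mean FPKM of at least 1, a block for the replicate number, removal of each library's lowess trend (span 0.3) with length and GC, and leaving out each library. The test was checked on simulated counts with a common spread for all genes. Such a check does not show how reliable the calls in these libraries are. No pair of replicates agreed within sampling noise (smallest chi-square per degree of freedom 6.98).

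The members and the companion lists, motifs and alternatives were chosen with earlier results of these data known. Named genes are the members, up to 4 called genes of smallest p per list (2 where none passed), matched ligands, receptors of the chromosome 9 cluster, and the 2 genes most like each called member. Genes outside this rule are marked as picked with values known. Of 176 listed companion genes, 175 were found. Promoter sequences are from RefSeq (GRCm38.p6).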

Additional observations from a re-analysis of the deposited data

How the results depend on the processing

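The call of Cx3cr1 held in every alternative run, and the directions of Ccr1, Cxcr4, C3ar1 and Ptafr were the same in every alternative that gave them a value. The 2 members called in the main analysis became 1 with DESeq2 and with either FPKM fit (0 higher), since Ccr1 was past the threshold in none of them and its mean FPKM was under the minimum of 1. They became 4 with the length and GC trend removed (2 higher and 2 lower), where Cxcr4 was at -0.55 and C3ar1 at 0.28. Leaving out 1 library gave 1 to 3 called members (0 to 2 higher), with log2 fold changes of 1.14 to 1.77 for Ccr1, -0.35 to -0.14 for Cxcr4, 0.17 to 0.26 for C3ar1 and 0.34 to 0.70 for Ptafr. DESeq2 gave Ccr1 a log2 fold change of 1.46. Among the companion lists, 42 of 123 tested genes were called, beside 31.7% of all tested genes. Leaving out 1 library gave 27 to 42 called companion genes. The 27 came without DMSO 2, where 2510 of all 11846 tested genes were called. Of 253 values of the 17 named companion genes, 242 kept direction and side of the threshold, 10 lost the call and Itch reversed, to 0.039 with the length and GC trend removed; the cause was not tested. Over all genes, 3715 were called, 2510 to 3314 with 1 library left out, and 2646 with the length and GC trend removed. With the replicate number as a block, 4236 genes and 2 members were called, with log2 fold changes of 1.45 for Ccr1 and -1.03 for Cx3cr1. Deviations of same-numbered libraries correlated at 0.116, 0.075 and 0.020. DMSO 1 and DMSO 2 correlated best with the BPAP library of the same number, but DMSO 3 correlated best with BPAP 2 (0.041). The labels do not say what a shared number means, and whether libraries are paired was not tested. Depth limits Ccr1, C5ar1 and Fpr1, with 20 or fewer counts in every library.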
